A study of Mus musculus with 6 samples.

Results

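Neurofilaments and microtubule-associated proteins make up much of the cytoskeleton of axons and dendrites, and 10 of their genes were followed in mouse hippocampus after knockdown of SFRS8. They were the subunit genes Nefl, Nefm, Nefh and Ina, the microtubule-associated protein genes Map2, Mapt, Map1a and Map1b, and Stmn2 and Tubb3. The 10 genes were taken by symbol from the 30707 genes of the deposited table, each matched 1 row, and all 10 passed the filter of a mean of at least 1 FPKM that left 14012 genes to test. FPKM counts sequenced fragments relative to the length of a gene's exons and the size of the library, so levels of different genes can be compared per length.

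In 3 samples the hippocampus had received a virus directed at SFRS8, an older name of the splicing regulator Sfswap, and in the 3 samples they were set against it had received a control virus. All 6 samples had received a virus, and poly(A)-selected RNA of the tissue was sequenced. The sources used here do not give strain, age, sex, the promoter and serotype of the virus or the time after infection. Nor do they say whether each sample was 1 animal, so the p-values rest on a spread between samples that may be technical.

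Neurofilaments are the intermediate filaments of neurons. The light chain Nefl, the medium chain Nefm, the heavy chain Nefh and alpha-internexin (Ina) assemble together, and the long tails of the medium and heavy chains project from the filament and bear on axon calibre and transport. Map2 binds microtubules mainly in dendrites and tau (Mapt) mainly in axons, while Map1a and Map1b are large related proteins that are each cut into a heavy and a light chain, with Map1b prominent in growing axons and Map1a in mature neurons. Stmn2 (SCG10) binds tubulin dimers in growth cones and axons, and Tubb3 is a neuronal beta-tubulin.

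The libraries behind the values held 16622948 to 18097344 reads, and the reads recovered for the 10 genes ran from 1154 (Nefh, knockdown sample 1) to 32928 (Map1a, control sample 3), so that counting error alone was 0.551% to 2.94% of a value. The target was lower as labelled, with Sfswap at 9.79, 11.3 and 9.58 FPKM in knockdown samples 1 to 3, against 16.7, 18.5 and 19.2 FPKM in control samples 1 to 3. General neuron markers also had lower values: the log2 fold change was negative for all 10 (46.8% of all tested genes were) and -0.20 at the median, with 0 called. Lower without overlap were 5 (Snap25, Elavl3, Eno2, Syp and Syt1), against 11.8% of all tested genes. Uchl1, Rbfox3, Elavl4, Slc17a7 (-0.08) and Thy1 (-0.07) overlapped. The summed level of all 10 was 1252 to 1450 FPKM in knockdown samples and 1449 to 1517 FPKM in control samples. Thalamic markers had higher values, with a summed level over 10 genes of 45.2, 114 and 81.2 FPKM in knockdown samples 1 to 3, against 32.1, 27.4 and 23.6 FPKM in control samples 1 to 3. Of these 9 were tested and all 9 were positive, as were 7449 of all 14012 tested genes. Higher without overlap were 6 of the 9, and 1, Ramp3, was called higher (1.20% of all tested genes). Choroid plexus markers varied within both groups. Their summed level over 8 genes was 5390, 5078 and 1463 FPKM in knockdown samples 1 to 3, against 100.3, 125.2 and 3552 FPKM in control samples 1 to 3. Microglia markers were higher without overlap in 8 of 8 genes, with a median log2 fold change of 0.62 and 0 called. They summed to 313 to 479 FPKM in knockdown samples and 188 to 251 FPKM in control samples. Endothelial and mural cell markers were higher without overlap in 7 of 7 genes, with a median of 0.66 and 1, Pecam1, called higher (1.20% of all tested genes). They summed to 129.7 to 158 FPKM in knockdown samples and 80.4 to 97.9 FPKM in control samples. Of all tested genes, 18.0% lay higher without overlap. No marker of these 5 lists was at 0 in all samples, and the part of other tissue in the results below was not tested.

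None of the 10 genes was called in the comparison of knockdown with control (limma on log2(FPKM + 1), Benjamini-Hochberg adjusted p under 0.05 over all genes tested), where 1.43% of all tested genes were called, 1.20% (168 genes) higher and 0.228% (32 genes) lower. At a looser adjusted p under 0.1, 1 of the 10 was called lower (Map1a), against 2.51% of all tested genes. At an unadjusted p under 0.05, 1 of the 10 was higher (Nefm; 15.7% of all tested genes) and 3 were lower (Map1a, Map1b and Mapt; 7.98% of all tested genes). With limma's voom on the recovered reads 0 of the 10 were called as well, against 4.84% of the 12274 genes that fit took in. The knockdown and control values did not overlap for 5 of the 10, against 29.9% of all tested genes: Map2, Mapt, Map1a and Map1b lay lower (4 of 10, against 11.8%) and Nefm lay higher (1 of 10, against 18.0%). The median log2 fold change was -0.03 for the 10 and 0.02 for all tested genes. Log2 fold changes are differences of group means of log2(FPKM + 1), knockdown minus control. In bulk tissue, fewer cells of a type and less RNA per cell cannot be told apart.

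**Figure D1:**
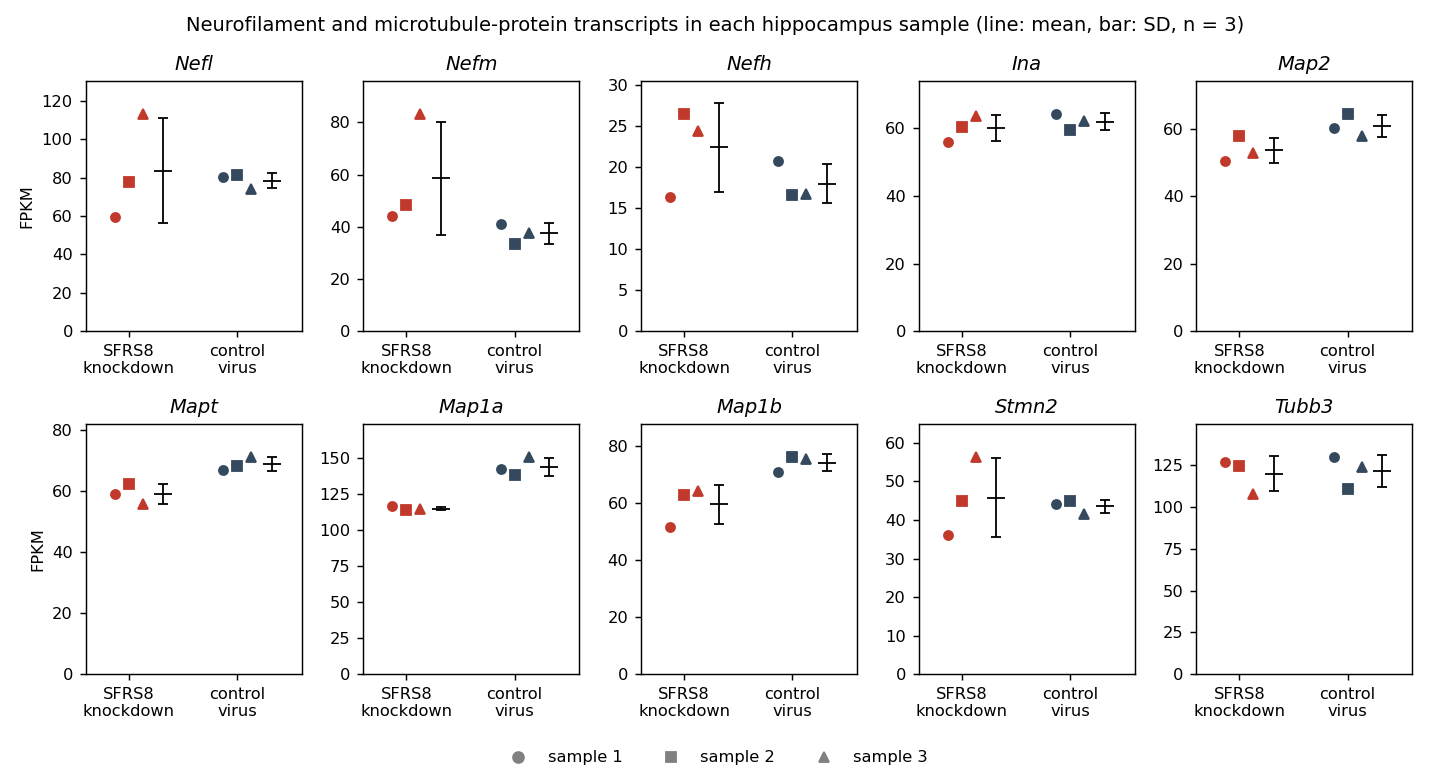
FPKM of each of the 10 transcripts (y axis, from 0) in the 3 SFRS8 knockdown samples (red, left) and the 3 control virus samples (dark, right); symbols give the sample number, the horizontal line the mean and the bar the SD. All 3 knockdown samples lie below all 3 control samples for Map2, Mapt, Map1a and Map1b, and above them for Nefm, while Nefl and Stmn2 spread on both sides of the controls.

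All 4 microtubule-associated protein genes had lower values in every knockdown sample than in any control sample, with means 11.8% to 20.1% below the control mean, and none passed the test. Together they summed to 278, 297 and 287 FPKM in knockdown samples 1 to 3, against 341, 347 and 355 FPKM in control samples 1 to 3. The promoters of Map1a, Map1b and Map2 are given first, the 3 of these 4 genes for which a promoter was at hand. Mapt, whose values were lower as well, had none. Windows run from 250 bases before to 50 bases after the start in RefSeq's annotation of GRCm38.p6, 5′ to 3′ on the gene's strand. Of the 10 genes, 5 had a promoter in the table used (Map1a, Map1b, Map2, Ina and Tubb3). Capitals mark matches on either strand to GGGCGG, the core of the GC box bound by Sp1 (CCGCCC when read on the gene's strand), and to TATAAA, the TATA box; the motifs cannot overlap each other, but neighbouring matches of the GC box can share bases.
Map1a, chr2:121289352-121289651, plus strand: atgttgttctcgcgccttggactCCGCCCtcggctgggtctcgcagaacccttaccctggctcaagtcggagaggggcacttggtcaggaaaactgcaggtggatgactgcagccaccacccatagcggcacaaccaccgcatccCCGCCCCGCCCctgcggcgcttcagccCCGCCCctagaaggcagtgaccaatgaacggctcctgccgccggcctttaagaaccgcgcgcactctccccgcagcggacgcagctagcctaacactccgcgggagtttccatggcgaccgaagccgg
Map1b, chr13:99516553-99516852, minus strand: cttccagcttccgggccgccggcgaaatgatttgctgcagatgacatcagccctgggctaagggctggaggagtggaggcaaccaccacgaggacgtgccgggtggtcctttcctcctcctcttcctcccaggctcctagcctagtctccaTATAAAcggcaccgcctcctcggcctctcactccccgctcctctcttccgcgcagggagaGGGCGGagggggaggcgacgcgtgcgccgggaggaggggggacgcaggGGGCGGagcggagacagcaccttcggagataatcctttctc
Map2, chr1:66175079-66175378, plus strand: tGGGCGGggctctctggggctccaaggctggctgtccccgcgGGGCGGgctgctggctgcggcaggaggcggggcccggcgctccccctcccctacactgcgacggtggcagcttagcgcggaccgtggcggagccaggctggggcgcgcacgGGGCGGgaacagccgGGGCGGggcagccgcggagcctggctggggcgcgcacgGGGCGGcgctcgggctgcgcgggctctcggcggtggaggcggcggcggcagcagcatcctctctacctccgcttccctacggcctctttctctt

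The Map1a window held 4 matches to GGGCGG, all on the opposite strand, the Map1b window 2 and the Map2 window 5, all on the gene's strand. Ina and Tubb3, whose values did not separate the groups, held 2 each. Among all 32851 promoters of the table, 35.7% held at least 1 match. Only the Map1b window of these 5 held TATAAA, which 13.6% of all promoters held, and none of the 5 held the cyclic AMP response element TGACGTCA, which 1.79% held. A match describes the letters of the window and says nothing of binding, and a link to the values of the genes was not tested.

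Map1a (mm10 chromosome 2, 121289600 to 121310832, plus strand) was the most abundant of the microtubule-associated protein genes and the closest to the threshold. It had 116, 114 and 114 FPKM in knockdown samples 1 to 3, against 143, 138 and 151 FPKM in control samples 1 to 3. The knockdown samples lay within 2.18 FPKM of each other and clear of the lowest control, with means of 114.9 ± 1.24 FPKM in knockdown and 144 ± 6.37 FPKM in control (SD, n = 3 each). Its log2 fold change was -0.32 (SE 0.07, 95% interval -0.48 to -0.16), with a limma adjusted p of 0.0601. An exact permutation test (two-sided) gave 0.1, its smallest possible p for 3 samples a group. Every gene whose groups do not overlap has this value, Map1b, Mapt, Map2 and Nefm among them, so it adds nothing to the separation.

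Map1b (chromosome 13, minus strand, 99421446 to 99516540) stood at 51.4, 62.6 and 64.3 FPKM in knockdown samples 1 to 3, against 70.7, 76.1 and 75.3 FPKM in control samples 1 to 3. Knockdown sample 1 was the lowest of the 6, and the other two stood closer below the controls. The means were 59.5 ± 6.99 FPKM in knockdown and 74.0 ± 2.92 FPKM in control, a log2 fold change of -0.32 (95% interval -0.55 to -0.08, limma adjusted p = 0.122). The level of these related genes relative to each other was nearly the same in both groups: Map1a over Map1b was 1.95 ± 0.267 in knockdown samples and 1.94 ± 0.113 in control samples, with overlapping values.

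Tau (Mapt, chromosome 11, 104231390 to 104332090, plus strand) stood at 59.2, 62.3 and 55.7 FPKM in knockdown samples 1 to 3 and at 67.1, 68.5 and 71.3 FPKM in control samples 1 to 3. Its log2 fold change was -0.22 (95% interval -0.39 to -0.05, limma adjusted p = 0.129), and knockdown sample 3 was the lowest. Map2 (chromosome 1, 66175273 to 66442583, plus strand) showed the smallest of the 4 differences, with 50.6, 57.83 and 52.8 FPKM in knockdown samples 1 to 3 and 60.3, 64.6 and 57.88 FPKM in control samples 1 to 3. The highest knockdown sample and the lowest control were 0.0545 FPKM apart, so the separation of the groups is close to a tie (log2 fold change -0.18, 95% interval -0.37 to 0.01, limma adjusted p = 0.232). The ratio of the dendritic to the axonal protein's transcript, Map2 over Mapt, was 0.856, 0.928 and 0.947 in knockdown samples 1 to 3, against 0.900, 0.944 and 0.812 in control samples 1 to 3, and did not separate the groups.

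The median of the general neuron markers, -0.20, lay in the same range, while single markers ran from -0.36 (Snap25) to -0.07 (Thy1). When each sample was instead scaled to the geometric mean of the 10 general neuron markers, which moved the median log2 fold change of all tested genes up by 0.17, the log2 fold changes were -0.12 for Map1a, -0.12 for Map1b, -0.02 for Mapt and 0.02 for Map2, so that the sign of Map2 turned and the other 3 kept theirs. Limma adjusted p-values were then 0.307, 0.380, 0.887 and 0.861. The neuronal tubulin Tubb3 had a log2 fold change of -0.02, nearer 0 than the neuron markers, so ratios to it stay close to the unscaled comparison. Scaled to Tubb3 within each sample, Map1a had knockdown values below every control (0.964 ± 0.0821 in knockdown, 1.19 ± 0.0780 in control). For Mapt (0.494 ± 0.0256 in knockdown, 0.570 ± 0.0507 in control) the separation was close to a tie. Its highest knockdown value was 0.5166 (sample 3) and its lowest control value 0.5169 (sample 1). Map1b and Map2 overlapped.

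**Figure D2:**
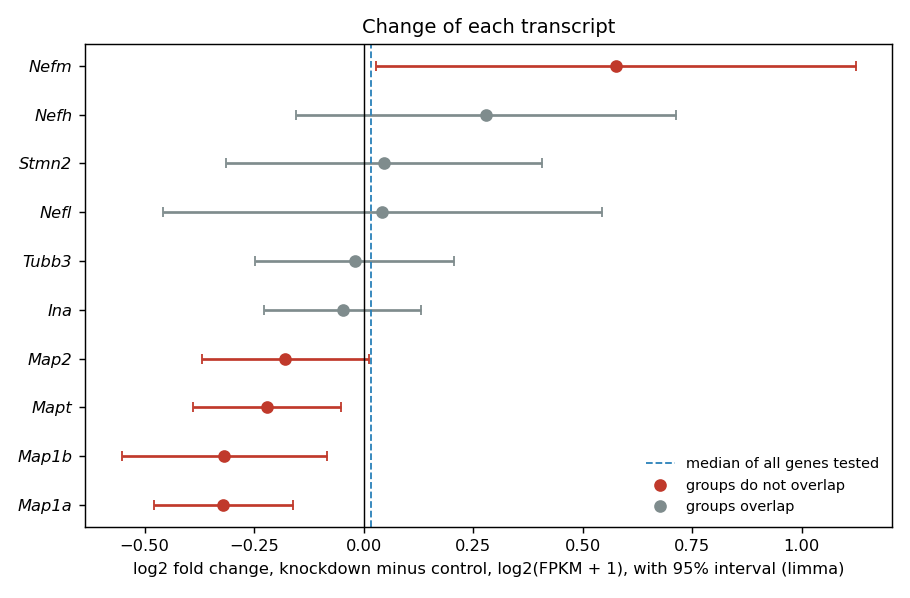
Log2 fold change of each transcript from log2(FPKM + 1), knockdown minus control (x axis), with its 95% interval from limma; red points are transcripts whose groups do not overlap, and the dashed line is the median of all genes tested (0.02). The 4 microtubule-associated protein genes lie at -0.32 to -0.18 and Nefm at 0.58, and the intervals of 6 of the 10 span 0, that of Map2 among them.

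Among the neurofilament genes only Nefm had knockdown values above every control. Nefm (chromosome 14, minus strand, 68082590 to 68124846) stood at 44.0, 48.3 and 83.4 FPKM in knockdown samples 1 to 3, against 41.3, 33.5 and 37.7 FPKM in control samples 1 to 3. Knockdown sample 3 stood far above the other two, of which the lower was 2.70 FPKM over the highest control. The means were 58.5 ± 21.6 FPKM in knockdown and 37.5 ± 3.90 FPKM in control, 1.56-fold (log2 fold change 0.58, SE 0.23, 95% interval 0.03 to 1.12, limma adjusted p = 0.193). Without knockdown sample 3 the log2 fold change was 0.30 (limma adjusted p = 0.180). Scaled to the neuron markers it was 0.78, with a limma adjusted p of 0.0497, the single setting of 17 in which Nefm was called. In that setting 17.2% of all tested genes were called higher.

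Nefl (chromosome 14, plus strand, 68083863 to 68089095) stood at 59.6, 77.9 and 113 FPKM in knockdown samples 1 to 3, against 80.02, 81.2 and 74.1 FPKM in control samples 1 to 3. Knockdown samples 1 and 3 were the lowest and the highest of the 6. The group means were therefore close, at 83.6 ± 27.3 FPKM in knockdown and 78.4 ± 3.82 FPKM in control, with a log2 fold change of 0.04 whose 95% interval ran from -0.46 to 0.54 (limma adjusted p = 0.927). Without knockdown sample 3 it was -0.20, and without knockdown sample 1 it was 0.26. Differences within that interval could not be told from none in these samples.

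The heavy chain Nefh (chromosome 11, minus strand, 4938754 to 4948064) had 16.3, 26.5 and 24.3 FPKM in knockdown samples 1 to 3, against 20.7, 16.5 and 16.7 FPKM in control samples 1 to 3. Knockdown samples 2 and 3 were above every control and knockdown sample 1 was below them all. Its log2 fold change was 0.28 (95% interval -0.15 to 0.71, limma adjusted p = 0.402), and 0.48 without knockdown sample 1 and 0.15 without knockdown sample 2. Knockdown sample 2, then 3, then 1 was also the order of the thalamic markers in the knockdown group. Nefl, Nefm and Stmn2 ran in another order there, sample 3, then 2, then 1. The part of thalamic tissue in the Nefh values was not tested. Alpha-internexin (Ina, chromosome 19, 47014698 to 47025327, plus strand) varied least of the 4, with 55.9, 60.5 and 63.6 FPKM in knockdown samples 1 to 3, against 64.4, 59.5 and 62.1 FPKM in control samples 1 to 3 (log2 fold change -0.05, 95% interval -0.23 to 0.13, limma adjusted p = 0.755).

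Within the neurofilament transcripts, the medium chain was set against the other subunits. Nefm over Nefl was 0.738, 0.619 and 0.736 in knockdown samples 1 to 3, against 0.516, 0.412 and 0.509 in control samples 1 to 3, and the groups did not overlap. Relative to its mean, this ratio was less spread within the knockdown group than either gene alone. In the control group it was more spread than either (0.698 ± 0.0678 in knockdown, 0.479 ± 0.0579 in control). Of the summed FPKM of the 4 subunits, Nefm held 25.0%, 22.6% and 29.3% in knockdown samples 1 to 3, against 19.999%, 17.6% and 19.8% in control samples 1 to 3. Nefm over Nefh overlapped, with 2.70, 1.82 and 3.42 in knockdown samples 1 to 3, against 1.99, 2.02 and 2.26 in control samples 1 to 3, and was lowest in knockdown sample 2. Nefh over Nefl (0.215 to 0.340 in knockdown, 0.204 to 0.259 in control) and Ina over Nefl (0.561 to 0.938 in knockdown, 0.733 to 0.838 in control) overlapped too. No test was run on these ratios, which were chosen with the values of the 10 genes known.

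The annotation limits what the Nefm and Nefl values can show. In GENCODE M21, 1 of the 2 Nefm transcripts ends in an exon that runs across the start of Nefl on the other strand, and 1108 exonic bases (chromosome 14, 68083863 to 68084970) belong to both genes. They make up 32.8% of the exonic length of Nefl, 1008 of them coding in Nefl, and 19.2% of that of Nefm. The library protocol in the labels names no step that marks the strand, and how the authors counted reads in shared bases is not stated in them, so reads of this stretch cannot be assigned to one gene. Ina shares 456 exonic bases (14.1% of its length) with Nt5c2 on the other strand, Map1a 272 bases (2.24%) with Ppip5k1 and Map2 124 bases (0.754%) with Gm10558, and the remaining 5 genes share none.

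**Figure D3:**
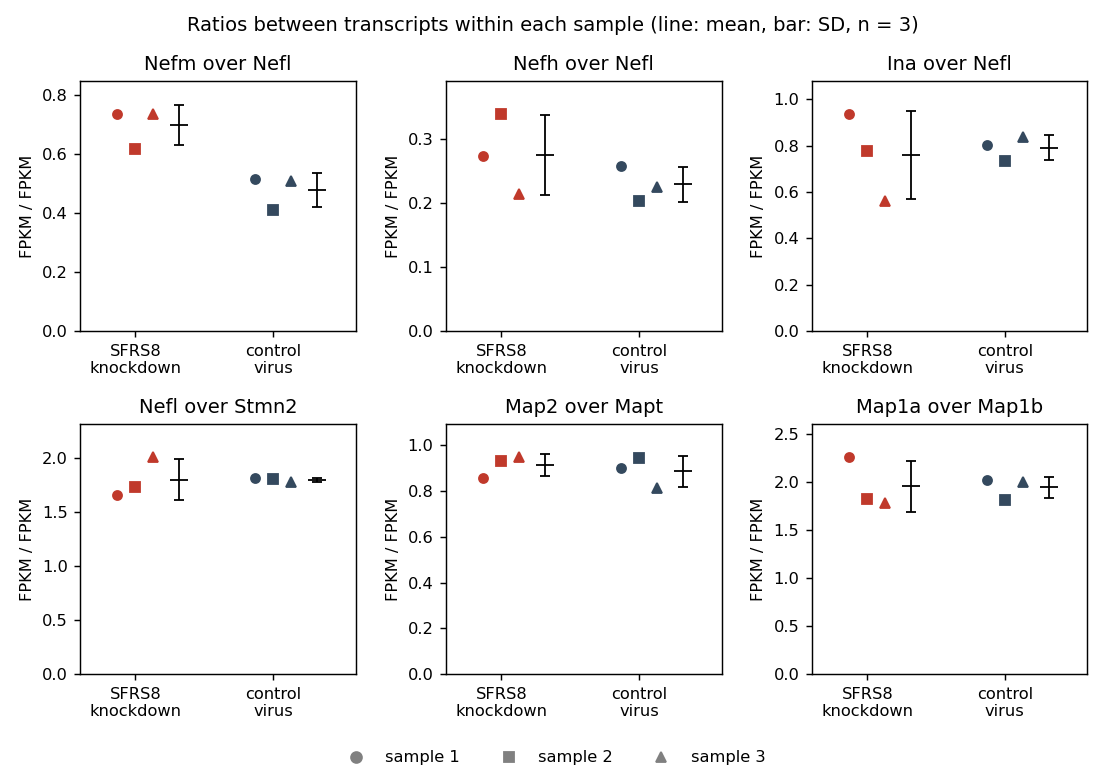
Ratio of the FPKM of one transcript to another within each sample (y axis, from 0), for the 3 knockdown samples (red, left) and the 3 control samples (dark, right), with mean and SD. Nefm over Nefl lies at 0.619 to 0.738 in knockdown samples and 0.412 to 0.516 in control samples, and the other 5 ratios overlap.

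Stmn2 and Tubb3 had overlapping groups. Stmn2 (chromosome 3, plus strand, 8509360 to 8561606) had 36.0, 45.0 and 56.3 FPKM in knockdown samples 1 to 3, against 44.1, 44.9 and 41.6 FPKM in control samples 1 to 3, with a log2 fold change of 0.05 (95% interval -0.31 to 0.41, limma adjusted p = 0.888). Its samples stood in almost the same order as those of Nefl, lowest in knockdown sample 1 and highest in knockdown sample 3. Nefl over Stmn2 was 1.66, 1.73 and 2.01 in knockdown samples 1 to 3 and 1.81, 1.81 and 1.78 in control samples 1 to 3, so the means of this ratio, 1.80 ± 0.186 in knockdown and 1.80 ± 0.0184 in control, were alike. Tubb3 (chromosome 8, plus strand, 123411424 to 123422015) had 127, 125 and 107.9 FPKM in knockdown samples 1 to 3, against 129.8, 110.8 and 124 FPKM in control samples 1 to 3 (log2 fold change -0.02, 95% interval -0.25 to 0.21, limma adjusted p = 0.923). Of the 10 genes it had the smallest difference of the group means relative to its level.

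Except for Map1a, the knockdown samples differed from each other more than the controls did in every gene followed here. The coefficient of variation was 32.6% in knockdown and 4.87% in control for Nefl, 36.9% in knockdown and 10.4% in control for Nefm, 24.0% in knockdown and 13.1% in control for Nefh, and 22.3% in knockdown and 3.93% in control for Stmn2. The median over all tested genes was 11.99% in knockdown and 8.45% in control. Ina (6.42% in knockdown, 3.94% in control), Map1b (11.8% in knockdown, 3.95% in control), Map2, Mapt and Tubb3 were under that knockdown median. For Map1a the knockdown samples were instead the closer ones, at 1.08% in knockdown and 4.43% in control. Relative to the control mean, on the log2(FPKM + 1) scale, knockdown sample 1 was at -0.39 for Nefl, -0.27 for Stmn2 and -0.52 for Map1b, and knockdown sample 3 at 0.53 for Nefl, 1.14 for Nefm and 0.36 for Stmn2. On the same scale, the mean over 8 dentate granule cell markers was lowest in knockdown sample 1. It was -0.73 there, -0.59 in knockdown sample 2 and -0.37 in knockdown sample 3, against -0.16 to 0.08 in control samples. The log2 fold change was negative for 7 of the 8 (46.8% of all tested genes were). Lower without overlap were 4 (Lct, Calb1, Plk5 and Dsp), against 11.8% of all tested genes. Of these 1, Lct, was called lower by limma (0.228% of all tested genes). C1ql2, Rfx3, Tdo2 and Prox1 overlapped. Prox1 was not lower, at 14.4 ± 3.25 FPKM in knockdown and 13.8 ± 1.71 FPKM in control (log2 fold change 0.04). The sample with the lowest value differed between markers. Lct, Plk5, C1ql2 and Rfx3 were lowest in knockdown sample 1, Calb1 and Tdo2 in knockdown sample 3, and Dsp and Prox1 in knockdown sample 2. The part of granule cells in the differences of the 10 genes was not tested.

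**Figure D4:**
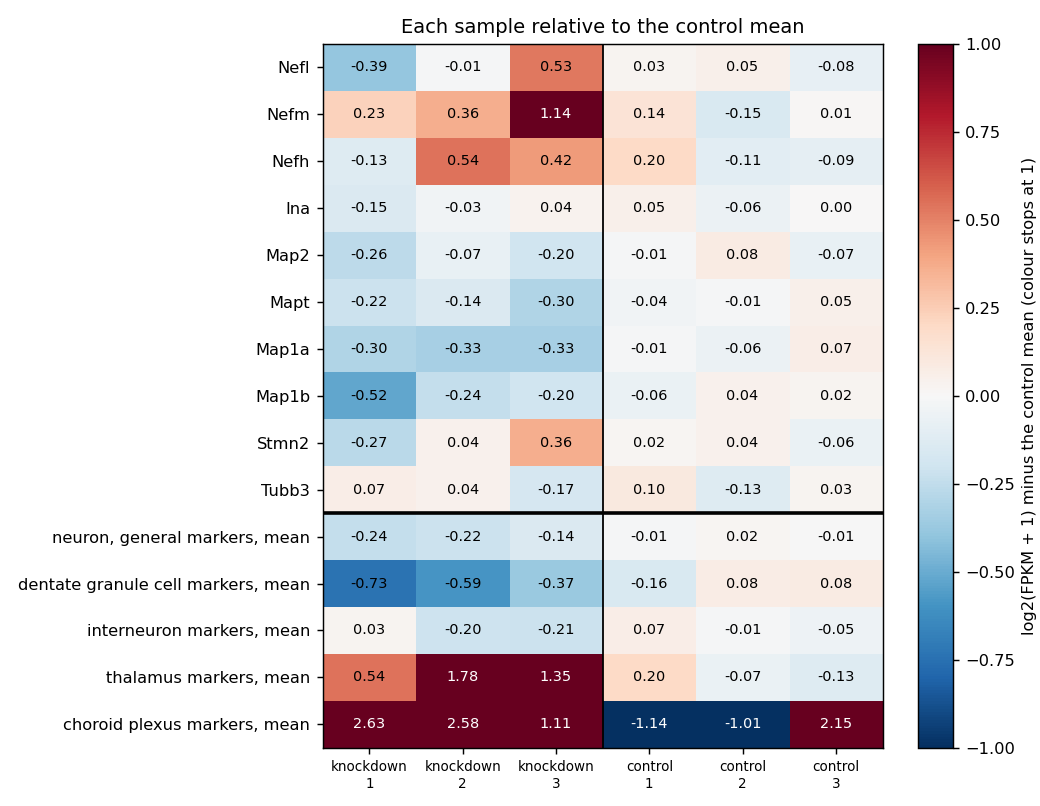
Log2(FPKM + 1) of each transcript minus its control mean in the 3 knockdown samples (left) and the 3 control samples (right), with the mean over the tested genes of 5 marker lists below the thick line; red is above and blue below the control mean. Map2, Mapt, Map1a and Map1b are below 0 in all 3 knockdown samples, as are the general neuron markers (-0.24, -0.22 and -0.14), whereas Nefl, Nefh, Ina, Stmn2 and Tubb3 differ in sign among the knockdown samples.

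Per length, the order of the 10 genes was in part different in the 2 groups. In knockdown samples Tubb3 (119.8 FPKM on average) and Map1a (114.9 FPKM) came first and overlapped, followed by Nefl, and then Ina, Map1b, Mapt, Nefm and Map2 between 60.0 and 53.8 FPKM, each overlapping its neighbour, with Stmn2 (45.8 FPKM) and Nefh (22.4 FPKM) last. In control samples Map1a (144 FPKM) was above Tubb3 (121 FPKM) without overlap. Nefl (78.4 FPKM) and Map1b (74.0 FPKM) overlapped, as did Ina (62.0 FPKM) and Map2 (60.9 FPKM), with Mapt (68.9 FPKM) between these pairs and apart from Ina. Stmn2 (43.6 FPKM), Nefm (37.5 FPKM) and Nefh (18.0 FPKM) were last and apart from one another. By mean level all 10 were at or above percentile 81.3 of the tested genes, which was that of Nefh.

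Limma on log2(FPKM + 1) called none of the 118 tested genes in 8 lists of related cytoskeletal genes, against 1.43% of all tested genes. At an unadjusted p under 0.05, 11 were higher and 15 lower (15.7% and 7.98% of all tested genes). Voom on the recovered reads called 3 of the 109 it took in, Vim and Mtus1 higher and Mapk10 lower, against 4.84% of all genes in that fit. The medians of the 8 lists ran from -0.08 to 0.24, beside 0.02 for all tested genes. In the filament list (9 tested, 3 higher and 1 lower without overlap, against 18.0% and 11.8% of all tested genes), vimentin (Vim), an intermediate filament of glia and vessels, had 31.3, 29.6 and 54.5 FPKM in knockdown samples 1 to 3, against 18.3, 19.9 and 16.9 FPKM in control samples 1 to 3, a log2 fold change of 0.98 (limma adjusted p = 0.0686, voom adjusted p = 0.0427). Beside it, the endothelial and mural cell markers and the microglia markers were higher without overlap in all 7 and all 8 genes. Of 8 astrocyte markers 2, Aqp4 and Gja1, were called higher by limma (1.20% of all tested genes). Another 2, Ntsr2 and Aldoc, were lower without overlap (11.8% of all tested genes). Their part in the vimentin values was not tested. The nuclear lamin gene Lmna stood at 8.80 ± 1.49 FPKM in knockdown and 6.25 ± 0.560 FPKM in control (adjusted p = 0.115). Of 14 tubulins 3 were higher (18.0% of all tested genes) and 3 lower (11.8%) without overlap. Tuba4a was 76.5 ± 5.10 FPKM in knockdown and 93.7 ± 2.04 FPKM in control (limma adjusted p = 0.0804). Tubb6 was 6.77 ± 0.805 FPKM in knockdown and 4.96 ± 0.431 FPKM in control (adjusted p = 0.0944).

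Other microtubule-binding proteins had the lowest list median (-0.08), with 24 of 34 negative (46.8% of all tested genes were), and 5 higher and 6 lower without overlap, against 18.0% and 11.8% of all tested genes. The 2 of smallest p were on the higher side. One was Mtus1, at 4.66 ± 0.290 FPKM in knockdown and 3.33 ± 0.258 FPKM in control (limma adjusted p = 0.0671, voom adjusted p = 0.0379). The other was Mapre1, which encodes the plus-end tracking protein EB1, at 14.3 ± 1.75 FPKM in knockdown and 10.9 ± 0.530 FPKM in control (adjusted p = 0.0938). The stathmins related to Stmn2 went both ways, with Stmn4 at 80.2 ± 4.83 FPKM in knockdown and 67.9 ± 3.79 FPKM in control (limma adjusted p = 0.135) and Stmn3 at 258 ± 9.51 FPKM in knockdown and 287 ± 11.4 FPKM in control (adjusted p = 0.242).

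Kinases and phosphatases that act on tau and neurofilaments were balanced around a median of 0.01, with 2 of 21 higher (18.0% of all tested genes) and 5 lower (11.8%) without overlap. Mapk10, which encodes the neuronal kinase JNK3, had 25.2, 27.5 and 24.6 FPKM in knockdown samples 1 to 3, against 34.1, 33.8 and 33.7 FPKM in control samples 1 to 3. It had the smallest p of all these genes in both fits (log2 fold change -0.38, limma adjusted p = 0.05003, just over the threshold, and voom adjusted p = 0.0358, under it). Camk2a was 509 ± 49.2 FPKM in knockdown and 633 ± 13.02 FPKM in control (adjusted p = 0.105). Among 13 enzymes that modify tubulin, 1 was higher without overlap (18.0% of all tested genes), the deacetylase gene Sirt2, at 36.1 ± 1.34 FPKM in knockdown and 30.2 ± 1.40 FPKM in control (limma adjusted p = 0.0988), while Agtpbp1, which trims glutamates from tubulin, overlapped (adjusted p = 0.489).

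Of 10 severing and tubulin-folding genes, Tbce, a tubulin folding cofactor, was the 1 lower without overlap (11.8% of all tested genes), at 7.90 ± 1.13 FPKM in knockdown and 10.6 ± 1.02 FPKM in control (limma adjusted p = 0.106). In the list of spectrins, ankyrins and axon initial segment genes (median -0.07), 1 of 14 was higher and 4 were lower without overlap, against 18.0% and 11.8% of all tested genes. Among the 4 lower were the axonal spectrin gene Sptbn4, at 26.8 ± 2.38 FPKM in knockdown and 33.2 ± 2.76 FPKM in control (limma adjusted p = 0.125), and Add2, a subunit of adducin, at 32.02 ± 2.91 FPKM in knockdown and 38.1 ± 1.00 FPKM in control (adjusted p = 0.141).

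**Figure D5:**
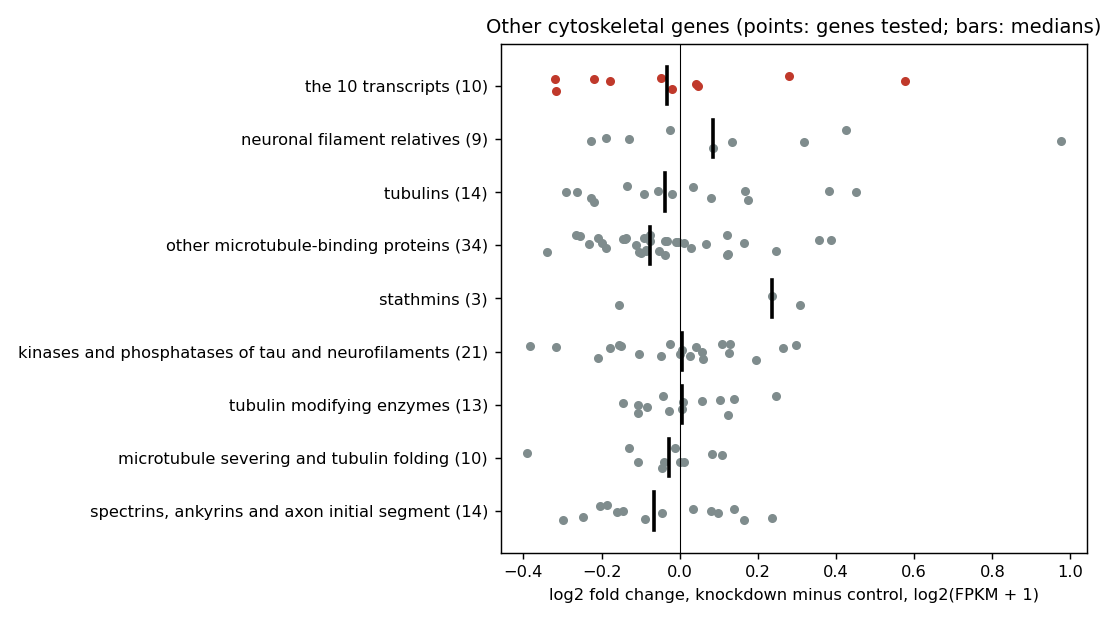
Log2 fold change from log2(FPKM + 1), knockdown minus control (x axis), of the 10 transcripts (red) and of the tested genes of 8 lists of other cytoskeletal genes (grey); black bars are medians and the number of genes is in brackets. The medians run from -0.08 to 0.24, and vimentin, at 0.98, lies farthest from 0.

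The genes whose pattern over the 6 samples was most like that of the neurofilament triplet or of the microtubule-associated proteins are given as a description, with Pearson's r on log2(FPKM + 1) and no test. The 10 genes themselves and symbols of the Gm or Rik kind were left out, also from the counts of genes below. For the mean standardised profile of Nefl, Nefm and Nefh the most alike genes were Tma7, Arfgef1, Cpne9, Gsr and Gamt (r = 0.970 to 0.982). Cpne9, a calcium-binding copine, spread widest, with 1.56, 4.04 and 5.61 FPKM in knockdown samples 1 to 3, against 2.96, 2.18 and 1.76 FPKM in control samples 1 to 3. For Map2, Mapt, Map1a and Map1b they were Pnma2, Pik3c3, Brinp2, Zfp512 and Astn1 (r = 0.991 to 0.997). For this profile 154 genes had an r above 0.95, against 21 for the neurofilament profile. Pnma2 had 6.89, 8.30 and 7.27 FPKM in knockdown samples 1 to 3, against 9.68, 10.5 and 10.6 FPKM in control samples 1 to 3.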

How the data were processed

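RNA was sequenced from 3 hippocampus samples with the SFRS8 knockdown virus and 3 with the control virus. Per the labels' protocols, poly(A) RNA was selected with oligo(dT) beads, fragmented, and primed with random hexamers. The authors deposited FPKM values per gene, and per the submitters' processing notes the build was mm10; no aligner, counting program or annotation is named in the labels. Multiplying FPKM by the exonic length in GENCODE M21, which matched 30641 of 30707 identifiers, gave whole reads (within 0.01) for 90.9% to 91.1% of the values above 0, and for all values of the 10 genes. For a 1 kb gene listed at 0 the limit is 3 reads (0.166 to 0.180 FPKM), which covers counting error alone.

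The test was made for genes averaging 1 FPKM or more, on log2(FPKM + 1), in R 4.3.3 with limma 3.58.1 (group as the only term, eBayes with trend, two-sided, Benjamini-Hochberg), after a check on simulated data. The pseudocount of 1 understates changes of low genes. The genes, lists and tests were chosen with earlier results of these data known. Named genes were the 10, the 2 of smallest p (and any called) in each of 8 lists, and the 5 most alike to each of 2 profiles; other named genes (markers) were chosen after their values were seen. An item this rule picked is not reported here. Promoters come from RefSeq's GRCm38.p6 annotation.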

Additional observations from a re-analysis of the deposited data

How the results depend on the processing

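Alternatives changed pseudocount, filter, scaling, variance trend, threshold, pairing and the samples used; voom on recovered reads and scaling to neuron markers were chosen after seeing the data. For the 10 genes the count called was 0 higher and 0 lower in the analysis reported and in each alternative except 2: 1 lower (Map1a) at an adjusted p under 0.1 and 1 higher (Nefm, log2 fold change 0.78) with neuron-marker scaling. Map1a kept its sign under all 17, from -0.40 to -0.12 with adjusted p of 0.0537 to 0.307, as did Map1b (-0.39 to -0.12), Mapt (-0.30 to -0.02), Nefm (0.30 to 0.78) and Nefh (0.15 to 0.48). Signs turned with median scaling for Nefl (-0.033) and Stmn2 (-0.028), and with neuron-marker scaling for Ina (0.15), Map2 (0.023) and Tubb3 (0.18). With 1 sample left out, the values ran from -0.20 (without knockdown sample 3) to 0.26 (without knockdown sample 1) for Nefl, -0.11 to 0.20 (the same samples) for Stmn2, -0.089 (without knockdown sample 3) to 0.0017 (without knockdown sample 1) for Ina, and -0.085 (without control sample 2) to 0.052 (without knockdown sample 3) for Tubb3, which was 0.028 without control sample 1.

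Over all genes, 168 were called higher and 32 lower. The counts were 290 and 64 at a pseudocount of 0.1, 274 and 64 at 0.5, 0 and 0 with no filter, 170 and 65 at 5 FPKM, 1 and 2 with the same FPKM sum, 68 and 52 with the same median, 0 and 0 without the trend, 983 and 352 at an adjusted p under 0.1, 498 and 96 with voom, and 2411 and 42 with neuron-marker scaling. Leaving out 1 sample gave 0 to 155 higher and 0 to 28 lower. With the replicate number as a block there were 0 and 0, and Map1a had an adjusted p of 0.134. Samples with the same number did not deviate together (r = 0.05, 0.04 and -0.01), so the numbers were not taken as pairs. The causes were not tested. With 3 samples a group, the permutation test cannot go below 0.1.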
